A study of Mus musculus with 22 samples.

Results

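Liver samples of mice that had received one of the tumour-producing regimens were ordered by, and the 2 sets compared below were chosen by, their signal for Glul, the gene of glutamine synthetase, and the genes that followed Glul across them were described. Of the 22 bead arrays in the study, 16 belonged to these regimens, and each array held 1 sample. In 9 of them (DENA plus TCPOBOP) the mouse had received 1 injection of the DNA-damaging carcinogen diethylnitrosamine (DENA, 90 mg/kg), 1 week of recovery, and then TCPOBOP (3 mg/kg) once a week for 28 weeks. In the other 7 (TCPOBOP 42 weeks) it had received TCPOBOP alone once a week for 42 weeks. TCPOBOP activates CAR, the constitutive androstane receptor of hepatocytes, without harming DNA, so every mouse of both regimens had received a CAR agonist. All mice were female C3H. The arrays of 28 weeks of TCPOBOP alone (n = 3) and of vehicle controls (n = 3, named in the titles by an abbreviation only) served as levels to read the others against. RNA came from microdissected liver. The labels place hepatocellular carcinomas in both regimens at these times but give no tumour status, no age and no mouse for the single samples, so p-values measure the spread between these samples.

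Glutamine synthetase joins ammonia to glutamate. In healthy liver it is made only by the ring of hepatocytes around the central vein, where Wnt signals from the vein's endothelium keep β-catenin active. The same signal turns on other pericentral genes, such as the transporters that bring in ammonium and glutamate, and holds down periportal genes, such as those of the urea cycle and of much amino acid breakdown. Liver tumours in which β-catenin is active commonly make glutamine synthetase throughout, and the gene is used as a marker of that state. β-catenin also switches on its own inhibitors, among them Axin2, Nkd1, Notum, Rnf43 and Znrf3, so the RNA of these feedback genes is a readout of the pathway that does not use Glul.

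The array carried 1 annotated Glul probe, detected on every array. On the log2 scale of the authors' normalized intensities Glul lay between 7.76 and 11.38 over the 16 arrays. The 5 highest arrays were all of DENA plus TCPOBOP: replicate 2 at 11.38, replicate 3 at 11.37, replicate 7 at 11.24, replicate 5 at 10.43 and replicate 4 at 10.34. The 5 lowest were all of TCPOBOP 42 weeks: replicate 1 at 8.87, replicate 2 at 8.84, replicate 4 at 8.64, replicate 6 at 8.04 and replicate 7 at 7.76. These are called Glul-high (10.95 ± 0.52, SD, n = 5) and Glul-low (8.43 ± 0.50, SD, n = 5), and since Glul chose them no test was made between them. Between them lay 6 arrays, where Glul and regimen ran opposite ways: DENA plus TCPOBOP replicate 9 at 9.87, replicate 8 at 9.41, replicate 1 at 9.25 and replicate 6 at 8.92, below TCPOBOP 42 weeks replicate 3 at 10.06 and replicate 5 at 10.05. The boundaries were narrow: the lowest Glul-high array, at 10.34, stood beside 10.06, and the highest Glul-low array, at 8.87, beside 8.92. Over whole regimens Glul was 10.25 ± 0.95 in DENA plus TCPOBOP (SD, n = 9) and 8.90 ± 0.89 in TCPOBOP 42 weeks (SD, n = 7), with 7.87 ± 0.22 after 28 weeks of TCPOBOP (SD, n = 3) and 9.19 ± 0.43 in controls (SD, n = 3).

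**Figure D1:**
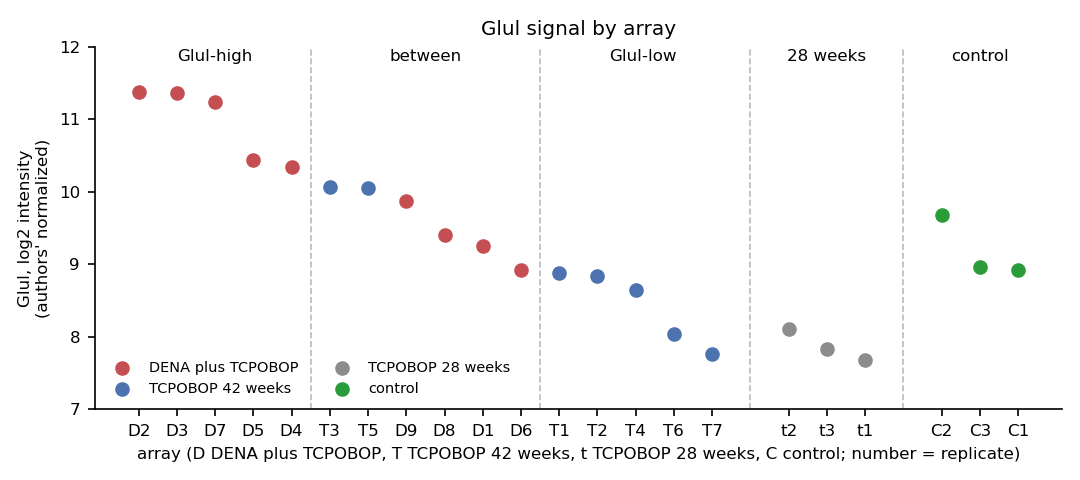
Glul signal (y axis, log2 of the authors' normalized intensity) of each of the 22 arrays, with the 16 arrays of the tumour regimens in order of Glul from left to right and the 28-week and control arrays after them. Each point is 1 array. The 5 points at the left are all of DENA plus TCPOBOP (10.34 to 11.38) and the 5 lowest of the 16 are all of TCPOBOP 42 weeks (7.76 to 8.87).

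Because Glul-high and Glul-low arrays differ fully in regimen, the effect of regimen and a relation to Glul cannot be told apart between them. Slides differ as well: the Glul-high arrays lay on slides 1, 3 and 4, the Glul-low arrays on slides 1 and 2. Relations to Glul were therefore measured chiefly as slopes across all 16 arrays in a limma model with regimen as a term. Slopes are in log2 signal per log2 unit of Glul. A slope of 1 means that a gene's background-corrected signal doubles when the authors' normalized Glul intensity doubles within a regimen. These 2 scales differ. Over the 16 arrays the Glul probe ran from 7.76 to 11.38 on the authors' scale and from 6.90 to 11.30 on that of the other genes. A slope above 1 therefore does not by itself mean that a gene changed more than Glul. Levels of the other genes are log2 signals after background correction and quantile normalization. Each array detected 34.8% to 42.6% of its probes, and 11288 genes other than Glul were tested.

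For no gene did the slope pass limma's threshold of 0.05 after Benjamini-Hochberg adjustment: 0 genes were called with a positive slope (0%) and 0 with a negative one (0%). At an unadjusted p under 0.05 there were 296 genes with a positive slope (2.62%) and 234 with a negative one (2.07%), together no more than such a threshold admits by itself. The slopes below are therefore estimates with their errors, none of them called, and lists of genes are read only against the same counts over all genes. The slope of DENA plus TCPOBOP minus that of TCPOBOP 42 weeks was not called for any gene either (limma, 0 of 11288, with 803 at an unadjusted p under 0.05). The genes closest to Glul by the moderated t of the slope were Tbx3, Rhbg, Akr1c6, Teddm1b and Slc1a2 in the positive direction, and Kyat3, Cps1, Thsd1, Hacl1 and Comtd1 in the negative one. Of these 10 genes, 3 belong to the Wnt feedback and pericentral lists (Tbx3, Rhbg and Slc1a2) and 1 to the periportal list (Cps1).

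The promoters of 3 genes on which the results turn, Sp5, Slc1a2 and Axin2, are shown here because the transcription factors that carry β-catenin to DNA, TCF and LEF, bind short words of the kind searched for. Each window runs from 250 bases before to 50 bases after the start of the gene, in RefSeq's table for GRCm38.p6, read 5′ to 3′ on the gene's strand, and capitals mark each word made of CTTTG and then 2 letters that are each A or T, or its reverse complement.
Sp5 (chr2:70474673-70474972, plus strand): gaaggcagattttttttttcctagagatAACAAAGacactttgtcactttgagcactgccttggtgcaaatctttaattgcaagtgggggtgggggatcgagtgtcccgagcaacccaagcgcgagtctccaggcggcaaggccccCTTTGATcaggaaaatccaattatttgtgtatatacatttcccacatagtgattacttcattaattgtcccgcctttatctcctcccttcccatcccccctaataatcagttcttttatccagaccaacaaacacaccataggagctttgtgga
Slc1a2 (chr2:102706188-102706487, plus strand): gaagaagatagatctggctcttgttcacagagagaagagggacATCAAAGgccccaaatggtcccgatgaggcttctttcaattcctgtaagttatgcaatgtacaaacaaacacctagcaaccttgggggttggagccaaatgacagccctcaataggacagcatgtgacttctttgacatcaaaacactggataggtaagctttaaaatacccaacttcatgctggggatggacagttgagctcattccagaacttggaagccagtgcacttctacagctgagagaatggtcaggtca
Axin2 (chr11:108920099-108920398, plus strand): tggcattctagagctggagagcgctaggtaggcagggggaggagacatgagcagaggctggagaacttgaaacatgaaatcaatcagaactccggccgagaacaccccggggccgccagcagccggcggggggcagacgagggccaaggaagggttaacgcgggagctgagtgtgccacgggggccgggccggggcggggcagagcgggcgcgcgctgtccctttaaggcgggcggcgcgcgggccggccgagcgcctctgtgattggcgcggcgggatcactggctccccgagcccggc
The Sp5 window holds 2 words, the Slc1a2 window 1 and the Axin2 window 0, and none of the matches overlap. Of the 13 measured Wnt feedback genes 7 have windows in the table, with 9 windows between them. Of these 9 windows 2 hold a word, 1 of Sp5 and 1 of Tnfrsf19, while 16.9% of all 32851 windows of this length do. A word in a window is a description of the letters and not a binding site.

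Genes that answer to Wnt and β-catenin went with Glul as a group. Of 17 listed feedback genes and targets, 13 were measured, and all 13 had a positive slope, against 49.6% of all genes tested. Measured means detected on at least 3 of the 16 arrays, which 7 of the 13 were on all 16 and which Nkd1 reached through Glul-high arrays. With no filter on dim probes 14 of 16 slopes were positive. Their median slope was 0.34, against a median of -0.000997 over all genes, and 8 of the 13 had an unadjusted p under 0.05, against 2.62% of all genes. In both regimens separately 11 of the 13 slopes were positive (23.8% of all genes). The median of the 13 was 0.43 within DENA plus TCPOBOP and 0.20 within TCPOBOP 42 weeks. All 13 slopes stayed positive with DENA plus TCPOBOP replicate 6 left out and also with replicate 2 left out, where medians were 0.24 and 0.28, but the count with an unadjusted p under 0.05 was then 5 and 6. Without both arrays 11 were positive, at a median of 0.16, and 3 had such a p. Within DENA plus TCPOBOP without replicate 6, 9 of the 13 were positive. Since these are bulk samples, fewer cells of a type and less RNA per cell cannot be told apart, here or in the other lists.

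Tbx3, a transcriptional repressor of the T-box family that β-catenin induces in liver, stood nearest to Glul of all genes by its positive t. On the Glul-high arrays, in falling order of Glul, its log2 signal was 10.47, 10.07, 10.44, 10.27 and 10.01, and on the Glul-low arrays 7.98, 8.89, 8.39, 8.66 and 7.46. The 2 sets do not overlap, as held for 2.31% of all genes in this direction. The slope was 0.56 ± 0.11 (SE, limma adjusted p = 0.515). Within the regimens the slope was 0.68 ± 0.13 in DENA plus TCPOBOP and 0.37 ± 0.19 in TCPOBOP 42 weeks (SE). Pearson r with Glul was 0.898 over the 9 DENA plus TCPOBOP arrays (exact permutation p = 0.00231, two-sided) and 0.608 over the 7 TCPOBOP 42 weeks arrays (exact permutation p = 0.146, two-sided). On the arrays between, Tbx3 averaged 9.10 in DENA plus TCPOBOP and 8.81 in TCPOBOP 42 weeks, so here the regimen with the lower Glul had the higher Tbx3. Its level was 7.51 ± 0.30 after 28 weeks of TCPOBOP and 9.48 ± 0.74 in controls (SD, n = 3 each).

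Axin2, a scaffold of the complex that marks β-catenin for destruction and a direct target in its feedback loop, had signals of 10.07, 8.46, 9.72, 7.97 and 8.64 on the Glul-high arrays and 7.24, 7.30, 7.97, 7.12 and 7.12 on the Glul-low arrays. The sets met at 7.97. The slope was 0.81 ± 0.20 (SE, limma adjusted p = 0.587), with 1.04 ± 0.26 in DENA plus TCPOBOP and 0.45 ± 0.21 in TCPOBOP 42 weeks. DENA plus TCPOBOP replicate 6, which had the lowest Glul of its regimen, also had by far the lowest Axin2, 5.58, close to the 5.61 ± 0.12 of the 28-week arrays (SD, n = 3). Without that array the slope in DENA plus TCPOBOP was 0.65 ± 0.22 (SE). Over both regimens the slope ran from 0.55 to 0.95 with each array left out in turn. Without DENA plus TCPOBOP replicates 2 and 6 it was 0.45 ± 0.16 (SE). The 2 TCPOBOP 42 weeks arrays between the sets carried 7.43 and 8.89, so only replicate 5 had high Axin2 to go with its Glul.

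Sp5, a zinc-finger factor that Wnt signals induce, had signals of 10.14, 9.06, 10.55, 9.06 and 9.00 on the Glul-high arrays and 6.84, 5.89, 8.58, 7.36 and 7.10 on the Glul-low arrays, without overlap. Its slope was 0.94 ± 0.27 (SE), of which 1.35 ± 0.30 in DENA plus TCPOBOP and 0.34 ± 0.33 in TCPOBOP 42 weeks, and it was 0.63 without DENA plus TCPOBOP replicate 6. Notum, an enzyme that inactivates Wnt proteins, had a slope of 0.64 ± 0.21 (SE) and 0.39 without that array. Lgr5, a receptor for R-spondins that strengthens Wnt signals, had a slope of 0.40 ± 0.16 (SE) and 0.24 without it. For Sp5, Notum and Lgr5 the size of the slope therefore depended on 1 array, while its sign did not. The same held for Axin2 within DENA plus TCPOBOP. Within DENA plus TCPOBOP Notum had a slope of 0.89 ± 0.27 and Lgr5 of 0.61 ± 0.19 (SE). Within TCPOBOP 42 weeks Notum had 0.26 ± 0.24 and Lgr5 0.10 ± 0.21 (SE).

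Nkd1, which restrains the Wnt mediator Dishevelled, was seen on few arrays. It was detected on 3 of the 5 Glul-high arrays, at 8.29, 5.42 and 7.04, and on none of the Glul-low arrays. The Glul-high mean was at least 1.78-fold higher than the lowest detected signal allows for the Glul-low mean (6.03 ± 1.58 and 4.73 ± 0.17, SD, n = 5 each). The 3 arrays were those with the highest Glul of all, DENA plus TCPOBOP replicates 2, 3 and 7. The slope was 0.58 ± 0.21 (SE), and 0.33 without replicate 2, so that array carried much of it. Within DENA plus TCPOBOP the slope was 0.91 ± 0.30 and within TCPOBOP 42 weeks 0.09 ± 0.12 (SE).

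RNA of the pathway's own machinery did not follow Glul in one direction. Of 21 measured Wnt receptors and members of the β-catenin complex, 9 had a positive and 12 a negative slope, with a median of -0.01. Ctnnb1, which encodes β-catenin itself, had a slope of -0.01 ± 0.08 (SE), with 11.81 ± 0.26 on the Glul-high and 11.73 ± 0.23 on the Glul-low arrays (SD, n = 5 each), and its sign changed between settings. Bcl9, a co-activator that binds β-catenin, had a slope of 0.30 ± 0.13, and Lrp6, a Wnt co-receptor, of -0.23 ± 0.10 (SE). The kept probes of Bcl9 disagreed in sign.

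**Figure D2:**
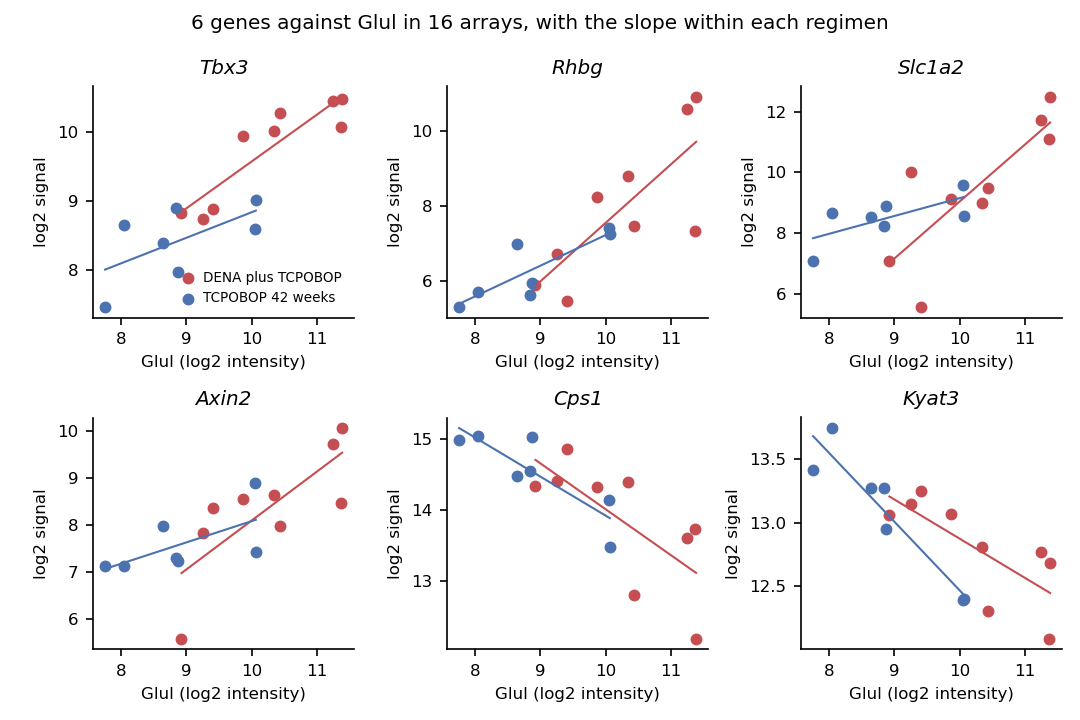
Log2 signal of 6 genes (y axes) against Glul (x axes, log2 of the authors' normalized intensity) on the 16 arrays. Each point is 1 array, coloured by regimen, and each line is the slope within that regimen. In Tbx3, Rhbg, Slc1a2 and Axin2 both lines climb to the right, and in Cps1 and Kyat3 both descend.

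Pericentral hepatocyte genes mostly went with Glul, though unequally. Of 32 listed genes 29 were measured, at a median slope of 0.17. Of these, 25 had a positive slope, against 49.6% of all genes, and 4 a negative one. A positive slope with an unadjusted p under 0.05 was held by 10 of the 29, against 2.62% of all genes. The slope was positive in both regimens for 17 of the 29 (23.8% of all genes). The median of the 29 was 0.21 within DENA plus TCPOBOP but 0.07 within TCPOBOP 42 weeks. Leaving out DENA plus TCPOBOP replicate 6 gave 21 positive slopes, a median of 0.13 and 7 with such a p. Leaving out replicate 2 gave 23, 0.19 and 6, and leaving out both gave 21, 0.10 and 5. The 2 steepest slopes among the 29 belonged to transporters of glutamate and ammonium, the substrates of glutamine synthetase.

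Slc1a2, a glutamate transporter, had signals of 12.50, 11.09, 11.72, 9.48 and 8.99 on the Glul-high arrays and 8.91, 8.23, 8.53, 8.65 and 7.08 on the Glul-low arrays. The 2 sets do not overlap, though 8.99 stands close to 8.91. The slope was 1.36 ± 0.31 (SE, limma adjusted p = 0.569), with 1.88 ± 0.41 in DENA plus TCPOBOP and 0.59 ± 0.23 in TCPOBOP 42 weeks. Its arrays between ranged from 5.57 in DENA plus TCPOBOP replicate 8 to 10.02 in replicate 1, of the same regimen and with similar Glul. The 28-week arrays carried 4.75 ± 0.26 and controls 9.46 ± 0.13 (SD, n = 3 each).

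Rhbg, an ammonium transporter, had signals of 10.91, 7.32, 10.57, 7.45 and 8.78 on the Glul-high arrays and 5.94, 5.62, 6.96, 5.69 and 5.29 on the Glul-low arrays, without overlap. The slope was 1.26 ± 0.27 (SE, limma adjusted p = 0.515). Of the 15 genes correlated with Glul one by one it alone had an exact permutation p under 0.05 in both regimens by Pearson r: 0.777 over 9 DENA plus TCPOBOP arrays (exact p = 0.0156, two-sided) and 0.843 over 7 TCPOBOP 42 weeks arrays (exact p = 0.0143, two-sided). The arrays between, which also entered the slope, had a mean of 6.57 on those of DENA plus TCPOBOP and 7.32 on those of TCPOBOP 42 weeks.

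Avpr1a, the vasopressin receptor of hepatocytes, had a slope of 1.23 ± 0.34 (SE), close in DENA plus TCPOBOP (1.17 ± 0.53) and in TCPOBOP 42 weeks (1.31 ± 0.19). That closeness rested on 1 array: without replicate 6 the DENA plus TCPOBOP slope of Avpr1a was 0.65 ± 0.57 (SE). Its signals were 9.61, 6.81, 10.58, 9.85 and 7.51 on the Glul-high arrays and 6.44, 6.65, 6.99, 5.08 (not detected) and 5.25 on the Glul-low arrays, all below the 11.40 ± 0.36 of controls (SD, n = 3). Oat, which turns ornithine towards glutamate, had a slope of 0.69 ± 0.30 (SE), 1.11 ± 0.38 in DENA plus TCPOBOP and 0.06 ± 0.34 in TCPOBOP 42 weeks. Blvrb, a biliverdin reductase, had a slope of 0.43 ± 0.12 (SE). Within DENA plus TCPOBOP the slope of Blvrb was 0.46 ± 0.17, and 0.20 ± 0.14 without replicate 6 (SE). The sets of Avpr1a, Oat and Blvrb overlapped.

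Of the 8 cytochromes P450 on the pericentral list 5 had a positive and 3 a negative slope, between -0.10 for Cyp27a1, of bile acid synthesis, and 0.34 for Cyp7a1, the rate-limiting enzyme of that pathway. Cyp1a2, an enzyme of drug oxidation, had a slope of 0.21 ± 0.08 (unadjusted p = 0.0151), which was 0.14 without DENA plus TCPOBOP replicate 6, and Cyp2e1, the ethanol-oxidising enzyme, of 0.08 ± 0.08 (SE). Cyp2e1 lay at 15.18 ± 0.17 on the Glul-high and 15.11 ± 0.15 on the Glul-low arrays (SD, n = 5 each), near the top of the scale, where an array compresses differences. Both were lowest in DENA plus TCPOBOP replicate 6, with 14.31 for Cyp1a2 and 14.37 for Cyp2e1. Cyp2b10, the P450 most used to read CAR activity, had a slope of -0.03 ± 0.06 (SE), with 15.24 ± 0.12 and 15.21 ± 0.11 on Glul-high and Glul-low arrays (SD, n = 5 each). It too lay near the top of the scale, so its slope may be compressed. The 26 measured CAR target genes had 7 positive and 19 negative slopes at a median of -0.04. Nr1i3, the gene of CAR itself, had a slope of 0.07 ± 0.13 (SE).

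**Figure D3:**
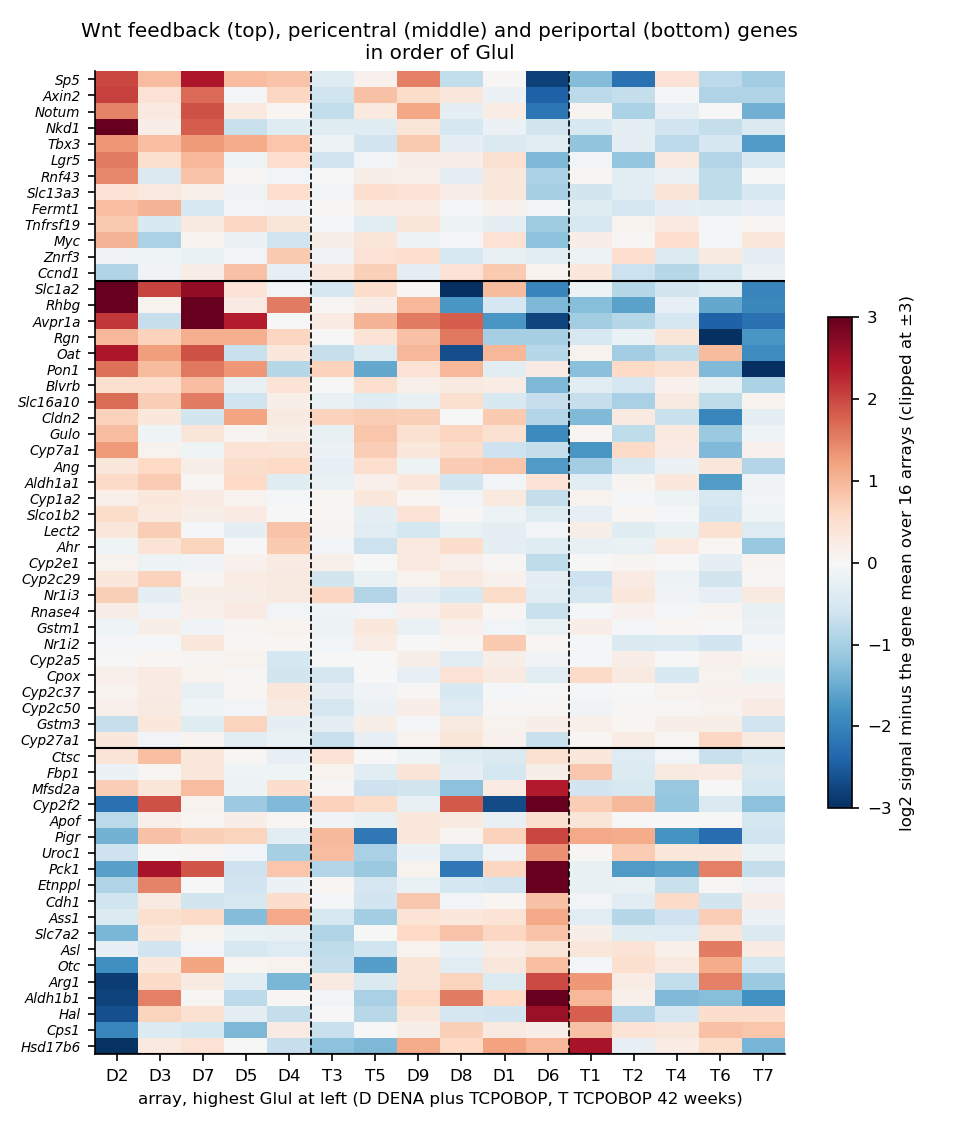
Log2 signal of each gene minus its mean over the 16 arrays (colour), for the 13 Wnt feedback genes, 29 pericentral genes and 19 periportal genes (rows, in order of slope within each list). Columns are arrays from highest Glul at the left to lowest at the right, with broken lines around the 6 arrays between. The first rows of the upper 2 blocks are mostly red at the left, and DENA plus TCPOBOP replicate 6 (D6), with Axin2 at 5.58, is blue in most of them and red in most periportal rows.

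Periportal genes leaned the other way, but 2 arrays decided it. Of 23 listed genes 19 were measured, 3 with a positive and 16 with a negative slope (50.4% of all genes had a negative one), at a median of -0.25. Only 4 of the 19 had a negative slope with an unadjusted p under 0.05, against 2.07% of all genes, and 1 had a positive one. In both regimens 12 of the 19 slopes were negative (24.3% of all genes). The median was -0.34 within DENA plus TCPOBOP but -0.05 within TCPOBOP 42 weeks. With DENA plus TCPOBOP replicate 6 left out 11 were negative, at a median of -0.15. With replicates 2 and 6 of that regimen both left out, the count was 12 positive and 7 negative, and the median was 0.04. Replicate 2 has the highest Glul and replicate 6 the lowest of the DENA plus TCPOBOP arrays.

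Cps1, which makes carbamoyl phosphate for the urea cycle from ammonia, did not depend on those arrays. Its signals were 12.20, 13.73, 13.61, 12.81 and 14.39 on the Glul-high arrays and 15.03, 14.55, 14.48, 15.04 and 14.99 on the Glul-low arrays, without overlap, as held for 2.59% of all genes in this direction. The slope was -0.61 ± 0.14 (SE, limma adjusted p = 0.569), with -0.65 ± 0.21 in DENA plus TCPOBOP and -0.55 ± 0.16 in TCPOBOP 42 weeks, and it was -0.53 ± 0.14 without DENA plus TCPOBOP replicates 2 and 6. On the arrays between, Cps1 averaged 14.48 in DENA plus TCPOBOP and 13.81 in TCPOBOP 42 weeks, opposite to Glul. Controls averaged 14.49 ± 0.29 (SD, n = 3).

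Asl, which splits argininosuccinate in the same cycle, was 9.20, 8.88, 9.37, 8.96 and 9.08 on the Glul-high arrays and 9.79, 9.87, 9.60, 11.00 and 9.69 on the Glul-low arrays, also without overlap. Its slope was -0.41 ± 0.12 (SE). The other urea cycle enzymes named were less even: Arg1 (arginase) had -0.46 ± 0.30, which was -0.19 without DENA plus TCPOBOP replicate 2, -0.23 without replicate 6 and 0.04 without both, and Ass1 (argininosuccinate synthase) -0.31 ± 0.17 (SE), with overlapping sets. Cyp2f2, a classic periportal P450, had a slope of -0.06 ± 0.44 (SE), negative in DENA plus TCPOBOP (-0.58 ± 0.63) and positive in TCPOBOP 42 weeks (0.71 ± 0.27). Both sets of Cyp2f2, at 8.27 ± 1.59 in Glul-high and 8.58 ± 1.04 in Glul-low arrays (SD, n = 5 each), lay far below the 13.72 ± 0.09 of 28-week arrays and the 13.92 ± 0.07 of controls (SD, n = 3 each). Hal, the first enzyme of histidine breakdown, had a slope of -0.53 ± 0.29 (SE) that was -0.24 without DENA plus TCPOBOP replicate 6 and -0.29 without replicate 2.

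Genes of amino acid breakdown share Hal and Uroc1 with the periportal list. Among 19 measured, 3 slopes were positive and 16 negative, at a median of -0.11, while 50.4% of all genes had a negative one. In both regimens 13 were negative (24.3% of all genes). Without DENA plus TCPOBOP replicate 6 the count was 8 positive and 11 negative. Without replicates 2 and 6 of that regimen it was 9 and 10, at a median of -0.07. Within DENA plus TCPOBOP without replicate 6, 11 slopes were positive and 8 negative, at a median of 0.03. Gldc, the glycine decarboxylase of the glycine cleavage system, had the steepest negative slope of the genes named, -0.73 ± 0.21 (SE). Without DENA plus TCPOBOP replicates 2 and 6 the slope of Gldc was -0.47 ± 0.20 (SE) and no longer the steepest. Its signals were 10.05, 12.65, 12.45, 11.93 and 13.44 on the Glul-high arrays and 13.97, 12.88, 14.01, 14.27 and 14.31 on the Glul-low arrays. Amdhd1, another step of histidine breakdown, had -0.60 ± 0.21 (-0.40 without DENA plus TCPOBOP replicate 2), Cth, which makes cysteine from cystathionine, -0.54 ± 0.22 and Agxt, which detoxifies glyoxylate, -0.42 ± 0.16 (SE).

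Glutamine and glutamate handling outside glutamine synthetase was split, with 9 positive and 9 negative slopes among 18 measured genes at a median of 0.02. Slc1a4, a transporter of small neutral amino acids, had a slope of 0.58 ± 0.17, Asns, the asparagine synthetase that spends glutamine, 0.67 ± 0.28 and Prodh, which starts proline breakdown, 0.19 ± 0.10 (SE). Asns dropped to 0.41 without DENA plus TCPOBOP replicate 2. Gpt, an alanine aminotransferase, had -0.27 ± 0.10 (SE).

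**Figure D4:**
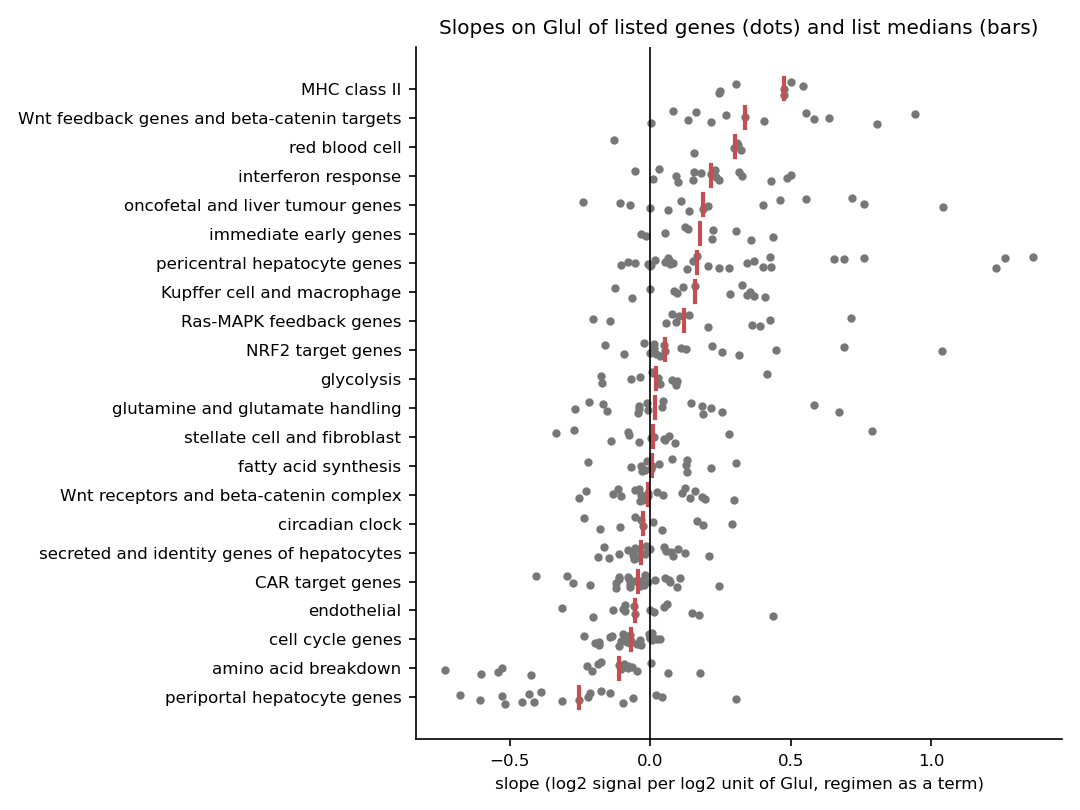
Slopes on Glul (x axis, log2 signal per log2 unit of Glul, regimen as a term) of the members of each list with at least 6 measured genes. Each dot is 1 gene and each bar the median of a list. The Wnt feedback list (median 0.34) and the MHC class II list (0.48) lie wholly right of 0, and the periportal list has the lowest median (-0.25).

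The 12 genes with the smallest p of a positive slope included, besides those above, several without a known place in zonation. Teddm1b, a transmembrane protein, was detected on all 5 Glul-high arrays, at 10.14, 7.98, 10.10, 7.64 and 6.90, and on 1 Glul-low array, at 7.59, while the other Glul-low arrays gave 4.58 to 4.98. The slope was 1.38 ± 0.30 (SE, limma adjusted p = 0.515), with similar values in DENA plus TCPOBOP (1.31 ± 0.36) and in TCPOBOP 42 weeks (1.48 ± 0.43). Its level was 4.51 ± 0.16 after 28 weeks of TCPOBOP and 4.74 ± 0.17 in controls (SD, n = 3 each), so the high values were seen only in the tumour regimens among these 4 groups.

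Akr1c6, a hydroxysteroid dehydrogenase, was 10.39, 10.28, 10.68, 9.57 and 9.59 on the Glul-high arrays and 8.65, 9.04, 9.74, 6.57 and 8.12 on the Glul-low arrays. The slope of 0.79 ± 0.17 (SE, limma adjusted p = 0.515) was similar in DENA plus TCPOBOP (0.78 ± 0.16) and in TCPOBOP 42 weeks (0.81 ± 0.32). Itpr3, a calcium channel of the endoplasmic reticulum, had a slope of 0.78 ± 0.18 and no overlap (7.40 ± 0.32 in Glul-high, 6.12 ± 0.90 in Glul-low arrays, SD, n = 5 each). On the arrays between it averaged 6.22 in DENA plus TCPOBOP and 7.65 in TCPOBOP 42 weeks, as Glul did.

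Pabpc2, a poly(A)-binding protein, was detected on all 5 Glul-high arrays and on no Glul-low array, at least 2.00-fold higher. It was detected on 7 of the 16 arrays, so it was kept for testing only through the Glul-high ones. Bmp8b, a ligand of the BMP family, had a slope of 1.04 ± 0.26, Serpina7, the thyroxine carrier of blood, 0.85 ± 0.20, Lrrc75a 0.51 ± 0.12 and Plekhd1 0.26 ± 0.06 (SE), the last detected on 3 of the 16 arrays, 2 of them Glul-high. The limma adjusted p of these 4 genes was 0.587.

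On the negative side Kyat3, a kynurenine aminotransferase, was the gene with the largest t. It was 12.68, 12.09, 12.77, 12.30 and 12.81 on the Glul-high arrays and 12.95, 13.27, 13.27, 13.75 and 13.42 on the Glul-low arrays, without overlap. The slope was -0.40 ± 0.08 (SE, limma adjusted p = 0.515), with -0.31 ± 0.12 in DENA plus TCPOBOP and -0.54 ± 0.13 in TCPOBOP 42 weeks. On the arrays between Kyat3 was 13.07, 13.25, 13.14 and 13.06 in DENA plus TCPOBOP, against 12.40 and 12.39 in TCPOBOP 42 weeks, opposite to Glul. Those arrays entered the fit by which Kyat3 was picked, so they are not separate support. Controls, at 11.81 ± 0.39 (SD, n = 3), were below all 16 arrays.

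Hacl1, a peroxisomal lyase that shortens fatty acids by 1 carbon, was 8.31, 7.86, 7.79, 8.07 and 7.77 on the Glul-high arrays and 9.14, 10.26, 9.11, 9.38 and 9.36 on the Glul-low arrays. Its slope was -0.53 ± 0.13 (SE), with -0.51 ± 0.15 in DENA plus TCPOBOP and -0.57 ± 0.22 in TCPOBOP 42 weeks, and the arrays between averaged 9.07 and 8.20 in the same order of regimens. Acat3, a cytosolic acetyl-CoA acetyltransferase, had a slope of -0.57 ± 0.15, Thsd1 -0.38 ± 0.09, Comtd1 -0.35 ± 0.09, Pxylp1 -0.37 ± 0.09, Kbtbd13 -0.60 ± 0.16, Edem2, of endoplasmic reticulum quality control, -0.39 ± 0.11 and Camkk2, a calcium-dependent kinase, -0.31 ± 0.08 (SE). Treh, the trehalase, shows how slope and set difference can part: its slope was -0.38 ± 0.10 (SE), yet it was 8.77 ± 0.35 on the Glul-high and 8.71 ± 0.50 on the Glul-low arrays (SD, n = 5 each).

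The genes of the 5 against 5 comparison were also read on the arrays between, where Glul and regimen ran opposite ways. Those arrays are few and were placed by Glul too, so they cannot tell the effect of regimen and a relation to Glul apart. Leaving out Glul, 261 genes (2.31%) were higher on every Glul-high array than on any Glul-low array, with a median difference of 0.81 on the log2 scale, and 292 (2.59%) were lower, with a median difference of -0.74. With arrays scaled to their median in place of quantile normalization the split was 86 higher and 191 lower. Among the 261 higher genes the arrays between had, like Glul, the lower mean in DENA plus TCPOBOP for 89 (34.1%), against 51.4% of all genes. Among the 292 lower genes they had the higher mean in DENA plus TCPOBOP for 124 (42.5%), against 48.6% of all genes. The slope had the sign of the set difference within both regimens for 178 of the 261 (68.2%) and 214 of the 292 (73.3%), against 23.8% of all genes with 2 positive and 24.3% with 2 negative slopes. Those slopes use the same arrays as the sets, and neither count was tested.

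Read the same way, the lists differed. Of the 13 Wnt feedback genes 10 had a lower mean on the 4 DENA plus TCPOBOP arrays between than on the 2 TCPOBOP 42 weeks arrays, as Glul did, against 51.4% of all genes. Of the 29 pericentral genes 15 did. Of the 19 periportal genes 18, and of the 19 genes of amino acid breakdown all 19, had a higher mean on the DENA plus TCPOBOP arrays between, opposite to Glul, against 48.6% of all genes. These 6 arrays include replicate 6 of DENA plus TCPOBOP.

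**Figure D5:**
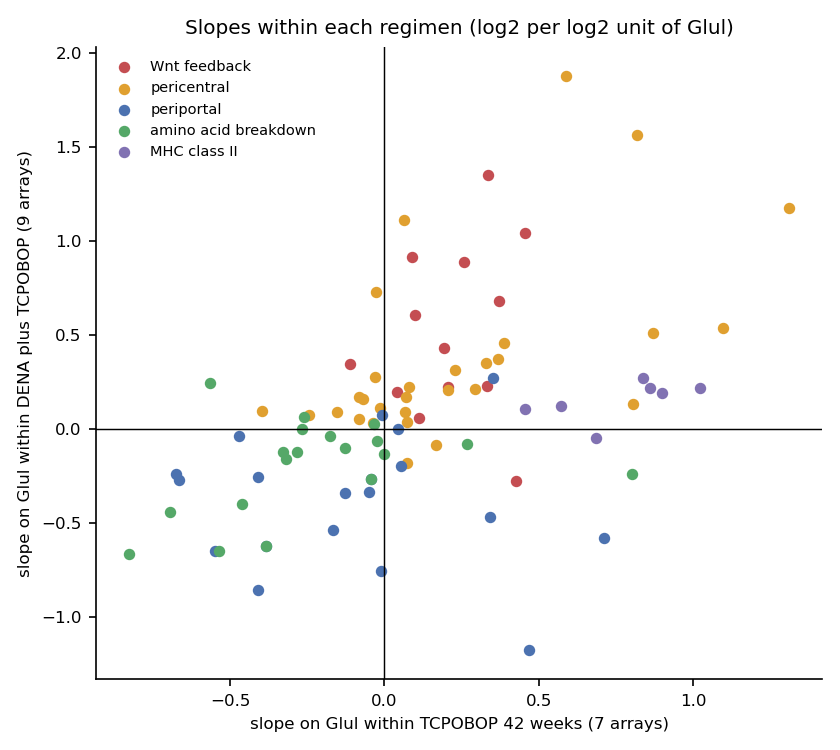
Slope on Glul within DENA plus TCPOBOP (y axis, 9 arrays) against the slope within TCPOBOP 42 weeks (x axis, 7 arrays), in log2 signal per log2 unit of Glul, for members of 5 lists. Each point is 1 gene, coloured by list. Most Wnt feedback genes (11 of 13) lie where both slopes are positive and most periportal genes (12 of 19) where both are negative, while MHC class II genes have the larger slopes in TCPOBOP 42 weeks (median 0.84 against 0.19 in DENA plus TCPOBOP).

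Genes of antigen presentation also went with Glul, with larger slopes in TCPOBOP 42 weeks, though the difference of slopes was called for no gene. All 7 MHC class II genes, which present peptides to helper T cells and belong to immune cells in normal liver, had positive slopes. Among all genes 49.6% did. The median of the 7 was 0.48, and 5 of them had an unadjusted p under 0.05, against 2.62% of all genes. Within DENA plus TCPOBOP alone 0 of the 7 had such a p. The median was 0.19 within DENA plus TCPOBOP and 0.84 within TCPOBOP 42 weeks. H2-DMa, which loads peptides, had a slope of 0.54 ± 0.16 (SE), 0.22 ± 0.16 in DENA plus TCPOBOP and 1.02 ± 0.20 in TCPOBOP 42 weeks. Its signals of 7.83, 6.60, 7.10, 6.80 and 6.73 on the Glul-high arrays lay within the spread of the Glul-low arrays (7.94, 6.73, 7.21, 6.09 and 5.75). H2-Eb1 had a slope of 0.50 ± 0.16, and H2-Ab1 and Cd74 of 0.48 ± 0.16 (SE).

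Macrophage markers moved beside them. Of 15 Kupffer cell and macrophage markers 13 were measured, with 10 positive and 3 negative slopes, at a median of 0.04 within DENA plus TCPOBOP and 0.45 within TCPOBOP 42 weeks. Without replicate 6 the median within DENA plus TCPOBOP was 0.21, with 11 of 13 positive. C1qa, a complement gene of macrophages, had a slope of 0.37 ± 0.13 (SE). The summed linear signal of the 13 markers was 4632 to 9712 on the Glul-high and 5375 to 10823 on the Glul-low arrays, and Cd5l and Cd68 had no kept probe. Of 13 lymphocyte markers 4 were measured, none of them detected on all 16 arrays, and their sum was 110 to 175 on the Glul-high and 103 to 163 on the Glul-low arrays. The part of these cells in the MHC class II slopes was not tested.

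Interferon-stimulated genes had 16 positive slopes and 1 negative among 17 measured, at a median of 0.22, against 49.6% positive among all genes. Only 3 of the 17 had a positive slope with an unadjusted p under 0.05, against 2.62% of all genes. Within DENA plus TCPOBOP only 10 of 17 were positive. Isg15, a ubiquitin-like protein, had a slope of 0.50 ± 0.13 (SE) and did not overlap, with 8.56, 8.69, 9.82, 8.47 and 8.80 on the Glul-high arrays and 7.83, 8.11, 8.24, 8.04 and 6.69 on the Glul-low arrays. Ifit2, an RNA-binding protein of the same response, had 0.49 ± 0.16 and Iigp1, an immunity-related GTPase, 0.33 ± 0.15 (SE). The list's median stood at 0.09 in DENA plus TCPOBOP and 0.46 in TCPOBOP 42 weeks.

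Feedback genes of the Ras-MAPK pathway had 10 positive and 2 negative slopes among 12 measured, at a median of 0.12, which was 0.08 without DENA plus TCPOBOP replicate 2. Dusp6, the phosphatase that switches off ERK, had a slope of 0.36 ± 0.10 (SE). It was 13.24, 11.89, 12.29, 11.93 and 11.66 on the Glul-high arrays and 11.52, 11.36, 11.41, 11.41 and 11.07 on the Glul-low arrays, without overlap, and it averaged 11.18 ± 0.31 in controls (SD, n = 3). Ier3 had a slope of 0.42 ± 0.18, which was 0.27 without DENA plus TCPOBOP replicate 2, and Phlda1 of 0.71 ± 0.24 (SE). Dusp5, a nuclear ERK phosphatase, had 0.39 ± 0.21 (SE) but 0.11 without DENA plus TCPOBOP replicate 2, and Junb, an immediate early gene, had 0.31 ± 0.20 but 0.08 without it.

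Tumour and oncofetal genes were not of one kind. Of 15 measured genes 11 had a positive and 4 a negative slope, at a median of 0.19. Without DENA plus TCPOBOP replicate 6 the count was 9 and 6 at a median of 0.37, and without replicate 2 it was 12 and 3 at 0.38. Gpc3, a cell-surface glypican that liver tumours often make, had a slope of 1.04 ± 0.49 (SE), which was 0.56 without DENA plus TCPOBOP replicate 1, where it was not detected. Its signals were 12.72, 11.43, 10.43, 12.19 and 12.30 on the Glul-high arrays and 9.06, 9.39, 12.40, 9.92 and 8.69 on the Glul-low arrays, so TCPOBOP 42 weeks replicate 4 had low Glul and high Gpc3. Afp, the fetal albumin of liver, had a slope of 0.14 ± 0.30 (SE), with 8.23 ± 1.33 on Glul-high and 8.09 ± 1.15 on Glul-low arrays (SD, n = 5 each), and its sign differed between regimens. Ly6d, a surface protein, had a slope of 0.25 ± 0.43 in DENA plus TCPOBOP and 1.52 ± 0.25 in TCPOBOP 42 weeks (SE), and Tspan8, a tetraspanin, 0.18 ± 0.24 and 1.53 ± 0.41 in the same order. Without DENA plus TCPOBOP replicate 6 the slope of Ly6d in that regimen was -0.44 ± 0.32 (SE). Peg3, an imprinted zinc-finger gene, did not overlap between sets (8.98 ± 0.42 in Glul-high, 10.25 ± 0.59 in Glul-low arrays, SD, n = 5 each) at a slope of -0.24 ± 0.17 (SE). That slope was -0.10 without TCPOBOP 42 weeks replicate 5 and -0.38 without DENA plus TCPOBOP replicate 6, and within DENA plus TCPOBOP it was -0.03.

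Genes of the cell cycle had no slope with an unadjusted p under 0.05 among 27 measured, with 6 positive and 21 negative and a median of -0.07. Without DENA plus TCPOBOP replicate 2 the count was 12 and 15, at a median of -0.01. Between the sets their median difference was -0.47 on the log2 scale. That array also decided other lists. Immediate early genes had 8 positive and 2 negative slopes among 10, and 5 and 5 without it. Glycolysis had 8 and 4 among 12, and 3 and 9 without it. Fatty acid synthesis had 9 and 6 among 15, and 6 and 9 without it. Genes of secreted proteins and hepatocyte identity, of which 20 of 21 measured were detected on all 16 arrays, had 7 and 14, and 11 and 10 without it. The 18 NRF2 target genes had 14 positive and 4 negative slopes, and 8 and 10 without DENA plus TCPOBOP replicate 6. The circadian clock had 5 positive and 6 negative slopes among 11 genes.

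Markers of other cell types gave no common direction. Endothelial markers had 7 positive and 8 negative slopes among 15, and 11 and 4 without DENA plus TCPOBOP replicate 6, although Pecam1, an adhesion molecule of vessels, did not overlap between the sets (6.64 ± 0.41 in Glul-high and 7.84 ± 0.39 in Glul-low arrays, SD, n = 5 each) at a slope of -0.32 ± 0.11 (SE). Stellate cell and fibroblast markers had 8 positive and 6 negative among 14, and 4 and 10 without DENA plus TCPOBOP replicate 2. Red blood cell genes had 5 positive and 1 negative slope among 6, at a median of 0.98 within TCPOBOP 42 weeks and -0.17 within DENA plus TCPOBOP, and their summed linear signal was 18635 to 36512 on the Glul-high and 6163 to 29032 on the Glul-low arrays. Neutrophil markers, 3 measured of 6, had 2 positive and 1 negative slope, with a median difference of -0.10 between the sets. Their summed linear signal was 394 to 618 on the Glul-high and 235 to 2191 on the Glul-low arrays. S100a9 among them was detected on all 5 Glul-high and no Glul-low array, at least 2.50-fold higher. Its slope was 0.21 ± 0.15 (SE), and 0.13 without DENA plus TCPOBOP replicate 6. Of 8 bile duct markers 2 were measured, with 1 positive and 1 negative slope. The negative slope was that of Sox9, -0.28 ± 0.31 (SE), which was -0.53 without DENA plus TCPOBOP replicate 1 and -0.11 without replicate 2. Their part in the other slopes was not tested.

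Correlations with Glul were taken one by one for 15 genes chosen as readouts of zonation and tumour state, with p-values not adjusted over them. Over all 16 arrays, which mixes the regimens, Pearson r was 0.875 for Tbx3 (permutation p = 2e-05) and 0.744 for Axin2 (permutation p = 0.00088). Spearman rho was 0.865 for Tbx3 (permutation p = 4e-05) and 0.759 for Axin2 (permutation p = 0.00098). Without the 2 arrays farthest from the median Glul r was 0.809 for Tbx3 and 0.674 for Axin2. Within DENA plus TCPOBOP r was 0.774 for Axin2 (n = 9, exact permutation p = 0.00433), 0.808 for Sp5 (exact permutation p = 0.00328) and 0.812 for Slc1a2 (exact permutation p = 0.00723). Within TCPOBOP 42 weeks these were 0.630 for Axin2 (n = 7, exact permutation p = 0.112), 0.331 for Sp5 (exact permutation p = 0.474) and 0.691 for Slc1a2 (exact permutation p = 0.0817). The 9 arrays of DENA plus TCPOBOP include replicate 6, where Axin2 stood apart at 5.58. Hal, Afp, Cyp2f2 and Cyp2e1 had r between -0.359 and 0.210 over the 16 arrays.

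Slides give a last view of the named slopes, since slide 1 held arrays of both regimens (2 of DENA plus TCPOBOP, 3 of TCPOBOP 42 weeks) and the other slides 1 regimen each. On slides 1, 2, 3 and 4 the slope of Tbx3 was 0.77, 0.30, 0.56 and 0.74, that of Axin2 1.00, 0.81, 1.25 and 0.76, and that of Rhbg 1.93, 0.90, 0.68 and 2.53. Slopes of Cps1 were -1.03, -0.40, -0.31 and -0.64, and those of Kyat3 -0.22, -0.53, -0.40 and -0.25. For these 5 genes the sign was the same on every slide, each of which held 3 to 5 of the arrays. These slopes had no regimen term, so that of slide 1 mixes the regimens. They use the same arrays as the slopes by which genes were named, so the shared sign is not separate support. With slide as a block beside regimen limma called 2 genes with a positive slope, Axin2 (0.91 ± 0.13, SE, adjusted p = 0.0428) and Nxpe2 (1.11 ± 0.15, SE, adjusted p = 0.0318). The Axin2 value of DENA plus TCPOBOP replicate 6, which stood apart at 5.58, entered that fit. With slide as a random block 0 genes were called in either direction (301 positive and 236 negative slopes at an unadjusted p under 0.05), so both calls were lost. Nxpe2 was named after its value was seen.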

How the data were processed

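Expression was measured on Illumina mouse bead arrays (45281 probes), 1 per liver sample, with BeadStudio 3.0.19.0 as the software named, per the submitters' processing notes. The deposited non-normalized table holds summarised probe intensity on a linear scale and, beside each array, a detection p-value that the authors' software gave each probe. The deposited normalized intensity (method not given in the sources used here) was taken to log2 here and used for the Glul order. The other genes started from the non-normalized intensity: normexp background correction in limma 3.58.1 (R 4.3.3), negative controls inferred from detection p-values, offset 16, quantile normalization of all 22 arrays on the log2 scale. Of the probes 34885 had 1 gene symbol, 18 several and 10378 none. Probes detected (p under 0.05) on at least 3 of the 16 arrays were kept and the brightest represented its gene (11289 genes, 4414 with several probes).

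Slopes were fitted with limma's lmFit and eBayes with regimen as a term, and p-values adjusted by Benjamini-Hochberg over all 11288 genes other than Glul at a threshold of 0.05. The fit was tested on simulated data. Correlations used permutation (100000 resamples) or exact permutation tests in scipy 1.17.1, and the planned adjustment over those genes alone is not given. Where a gene was undetected on all arrays of a set, its fold is a bound against the lowest detected signal of each array. The number of arrays limits the precision. Promoter windows are RefSeq's, for GRCm38.p6.

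Genes named are the 12 with the smallest p in each direction (no gene was called, so the largest changes among called genes could not be taken), the 5 most like Glul by t in each direction, up to 4 members of the main lists and 1 of the others, and a fixed set (Axin2, Lgr5, Tbx3, Sp5, Nkd1, Notum, Slc1a2, Rhbg, Oat, Cyp2e1, Cyp1a2, Cyp2f2, Hal, Gpc3, Afp, Ctnnb1, Cyp2b10, Nr1i3, Arg1, Ass1, and Gls2, which had no kept probe). Arrays, lists and genes were chosen with earlier results of these data known.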

Additional observations from a re-analysis of the deposited data

Results flagged for a closer look

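Of 174 pairs of a named gene and a regimen, 16 held an array that stood apart from the rest by Dixon's gap test, which chance alone gives in about 1 of 20 groups. All values are log2 signals, and the pairs share arrays. DENA plus TCPOBOP replicate 2, the array with the highest Glul, was low in Amdhd1 at 7.73 (nearest 9.67), Gldc at 10.05 (nearest 11.93) and Slc7a2 at 6.18 (nearest 7.33). It was high in Dusp5 at 8.61 (nearest 6.11), Ier3 at 12.10 (nearest 10.66), Junb at 10.41 (nearest 8.66) and Pkm at 11.08 (nearest 9.65). DENA plus TCPOBOP replicate 6, which had the lowest Glul of its regimen, was low in Axin2 at 5.58 (nearest 7.83), Cyp1a2 at 14.31 (nearest 14.94), Cyp2e1 at 14.37 (nearest 14.98) and Itpr3 at 4.82 (nearest 6.39). In TCPOBOP 42 weeks, replicate 6 was high in Cth at 12.32 (nearest 10.24) and low in Cyp2e1 at 14.85 (nearest 15.12). Of the same regimen, replicate 5 was high in Ifit2 at 9.30 (nearest 7.82), replicate 4 low in Prc1 at 7.45 (nearest 9.13) and replicate 7 high in Thsd1 at 8.67 (nearest 7.71).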

How the results depend on the processing

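No gene was called under most settings. Without the regimen term limma called 6 positive slopes (Tbx3, Rhbg, Akr1c6, Teddm1b, Pabpc2 and Pcdh1), and with slide as a fixed block 2 (Axin2 and Nxpe2), against 0 with slide as a random block. Leaving out each array in turn called 0 to 0 slopes, and 0 to 1 differences of slope between regimens (1 without DENA plus TCPOBOP replicate 3 or 8). Genes without overlap numbered 86 higher and 191 lower with median scaling, 466 and 494 for 4 against 4 arrays, and 47 and 34 for 6 against 6. The sets of 6 mix the regimens: TCPOBOP 42 weeks replicate 3 joins the high arrays and DENA plus TCPOBOP replicate 6 the low ones. Leaving arrays out can only raise such a count or keep it. With 1 array left out genes without overlap numbered 326 to 558 higher and 371 to 456 lower (558 and 456 without DENA plus TCPOBOP replicate 2). Positive slopes then numbered 12 to 13 of the Wnt genes and 21 to 25 of the pericentral genes, and negative slopes 11 to 17 of the periportal genes. Within DENA plus TCPOBOP alone 10 interferon genes were positive. List counts under other settings, the arrays between and the lists without replicates 2 and 6 were chosen after seeing the data.

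Same-numbered arrays of the 2 regimens did not deviate together (7 pairs, r -0.149 to 0.0994, 0 arrays closest to their own number). With the replicate block 0 genes were called. Positive slopes then numbered 12 of 13 Wnt and 19 of 29 pericentral genes, and negative ones 11 of 19 periportal and 12 of 19 amino acid genes. Slopes changed sign for Afp (-0.0406), Arg1 (0.12), Ass1 (0.15), Cth (0.21), Cyp2e1 (-0.0123), Cyp2f2 (0.28), Nr1i3 (-0.23), S100a9 (-0.16) and Tspan8 (-0.11). Within DENA plus TCPOBOP alone it changed for Afp (-0.16), Cd79b (-0.0519), Ctnnb1 (0.0260) and Hbb-bs (-0.13), and within TCPOBOP 42 weeks alone for Cyp2f2 (0.71), Gpx2 (-0.20), Junb (-0.0480), Nr1i3 (-0.0695), Prc1 (0.0332), S100a9 (-0.13) and Sox9 (0.0587). Ctnnb1 turned to 0.0238 with median scaling, 0.0395 without the regimen term, 0.0213 without the 2 arrays farthest from the median Glul and 0.00728 with array weights, and Cyp2f2 to 0.0517 and 0.20 under the last 2 of these. Leaving out each array gave slopes of -0.11 to 0.38 for Afp, -0.0484 to 0.0283 for Ctnnb1, -0.0159 to 0.11 for Cyp2e1, -0.34 to 0.46 for Cyp2f2 and -0.0148 to 0.18 for Nr1i3. The causes were not tested. A second Glul probe could not be tried, since 1 was annotated. Signals near background or near the top of the scale limit what a slope can show.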
